A study of Drosophila melanogaster with 32 samples.

Results

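The 117 genes described here lay next to short blocks of satellite repeat on the X chromosome of Drosophila melanogaster, the repeat family after which the allele PoX2[Df1.688] is named. A gene was taken when its span in the gene table, from the smallest start to the largest end, lay within 5000 bp of any X block of the deposited block table and when it reached at least 10 counts in 4 or more libraries. Of 17490 genes in the table, 2615 were on X and 2221 of these had the minimum counts. The window held 143 X genes, of which 10 were below the minimum counts and 16 were dropped by symbol, namely 11 non-coding genes, 1 ribosomal protein gene and the 4 hosts Pde9, flw, CG12065 and CG1840. The rule used position, the count minimum and these symbols, and no difference between groups entered it directly, but the symbols and the window were set with earlier results of these data known. Of the 117 genes, 114 were protein-coding in the annotation and 1 was a small nucleolar RNA gene, snoRNA:Psi28S-3342. FBgn0029128 and FBgn0259680 had no symbol and are named by their identifiers. The 2088 other X genes with the minimum counts and outside the window served for comparison. No symbols were dropped from this set, so it can hold non-coding, ribosomal protein, cuticle and odorant-binding genes. Any difference between the sets therefore mixes nearness to a block with the class of gene.

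This satellite is a tandem repeat that forms a large block in the pericentromeric heterochromatin of the X and short arrays among the euchromatic genes of the same chromosome, where it is far more frequent than on the autosomes. POF is an RNA-binding chromosomal protein that covers the fourth chromosome and raises its output. In females it also binds some X sites that carry the repeats. In males the single X is upregulated by the MSL complex, and the repeats have been discussed as one of the features that mark the X for this complex.

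Whole adult flies were measured by RNA sequencing in 8 groups of 4 samples, 32 libraries in all. The groups were males and virgin females of the mutants PoX2[Df1.688], Zhr[1] and Pof[D119] and of wild type (Oregon R). Pof[D119] is a deletion in the coding region of Pof, Zhr[1] lacks the pericentromeric satellite block of the X, and PoX2[Df1.688] lacks the euchromatic repeats downstream of CG1840. Each sample pooled 10 flies, of which 3 were taken at 6 to 8 h, 4 at 14 to 16 h and 3 at 22 to 24 h after hatching. The stocks were not made isogenic, so genotype and strain background cannot be told apart in any comparison with wild type. The 3 mutants of a sex share the same 4 wild-type libraries, and their values for a gene are therefore set side by side without a test of their likeness. In whole flies, fewer cells of a type and less RNA per cell cannot be told apart.

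Gene counts per library ranged from 12186486 to 37992591 read pairs and were lowest in the PoX2[Df1.688] and Zhr[1] groups. Pof itself was at 306 to 341 CPM (counts per 1000000 read pairs of the scaled library size) in wild-type males and at 11.4 to 13.8 CPM in Pof[D119] males, and at 12.9 to 14.4 against 6.59 to 9.93 CPM in females. The block removed in PoX2[Df1.688] (X, 11889258 to 11891752) had 14 to 37 reads in wild-type females, 4 to 18 in wild-type males, 0 in each PoX2[Df1.688] female library and 0 to 2 in PoX2[Df1.688] males. One wild-type male library, replicate 2, stood apart in its yolk protein transcripts. In Pof[D119] females, replicate 3 had the highest levels of ovarian transcripts, such as wisp at 174 CPM against 40.0 to 92.3 CPM in the other 3 libraries. The called counts of mutants against wild type, Yp1 and Yp2 are given with and without the library concerned. Most other single genes are given with all libraries, and with a library left out mainly where a call was lost.

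The genes were not spread evenly along the X. Of the 107 X blocks, 90 lay between 8 and 13.5 Mb (release 6 coordinates). The spans of 88 of the 117 genes lay at least partly in this interval. The spans of 38 genes overlapped a block. In 36 of them the blocks lay between exons only, and in sicily and CG34026 a block touched an exon. Of the other genes, 40 had the nearest block before the gene start and 39 after the gene end, at a median distance of 1784 bp. The outermost genes inside the window were fiz at 4943 bp and CG15343 at 4945 bp, and the nearest X gene outside it was ND-75 at 5061 bp. Neighbours often faced the same block. The 117 genes had 70 nearest blocks between them, and 76 genes shared theirs with another. Overlapping genes were long, with a median span of 44293.5 bp against 2464 bp for the rest. By role, 8 genes act in transcription and chromatin, 5 in RNA metabolism, 21 are enzymes or metabolic genes, 17 act in the cytoskeleton, adhesion or trafficking, 8 are channels or receptors and 4 are mitochondrial. The remaining 54 are uncharacterised or have another role.

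Per kb of counted length, kdn was the most abundant of these transcripts, at 1140 CPM per kb as the mean of all libraries. It encodes citrate synthase of the tricarboxylic acid cycle. The yolk protein genes Yp2 and Yp1 followed with 810 and 215 CPM per kb, and these means rest on the females. ND-B16.6, a subunit of respiratory complex I, was at 185 CPM per kb, and l(1)G0320 at 123 CPM per kb. At the other end, CG1986 and Rab9Db passed the minimum in 4 and 5 libraries only and were too low to be tested anywhere. Another 6 genes (CG15333, RabX2, CG9806, CG2577, CG43075 and CG43076) could be tested in males but not in females.

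Each mutant was compared with wild type of the same sex, with p adjusted over all genes tested (edgeR quasi-likelihood F test, threshold 0.05). In Pof[D119] females 18 of 109 tested genes near blocks changed, 13 higher and 5 lower, which is 16.5% beside 16.5% of all genes tested (8.08% higher and 8.4% lower) and 12.9% of other X genes. In Zhr[1] females 42 of 109 changed, 17 higher and 25 lower, or 38.5% beside 41.1% of all genes (20.3% higher and 20.8% lower) and 42.0% of other X genes. In PoX2[Df1.688] females 23 of 109 changed, 15 higher and 8 lower, or 21.1% beside 19.4% (8.9% higher and 10.5% lower) and 18.8%. The female shares were near those of all genes. In Zhr[1] females other X genes had the opposite balance of directions, with 459 higher and 312 lower.

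In males, 24 of 115 tested genes changed in Pof[D119], 13 higher and 11 lower, which is 20.9% beside 25.2% of all genes (13.6% higher and 11.6% lower) and 18.3% of other X genes. Of the same 115, 33 changed in Zhr[1] males, 22 higher and 11 lower, or 28.7% beside 22.9% (12.6% higher and 10.4% lower) and 17.6%. In PoX2[Df1.688] males 29 changed, 15 higher and 14 lower, or 25.2% beside 20.9% (11.5% higher and 9.4% lower) and 16.8%. The male shares thus lay above those of other X genes in each mutant, by a larger margin in Zhr[1] and PoX2[Df1.688] than in Pof[D119]. Against all genes the share was lower in Pof[D119] males (20.9% beside 25.2%). It was higher in Zhr[1] males (28.7% beside 22.9%) and PoX2[Df1.688] males (25.2% beside 20.9%). Without wild-type male replicate 2 the counts were 22, 38 and 34. When Pof[D119] female replicate 3 was left out, its comparison gave 32 genes, 16 higher and 16 lower, in place of 18. The shares of all genes and of other X genes in these refits are not given here. These moves can therefore not be set against those of genes elsewhere.

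**Figure D1:**
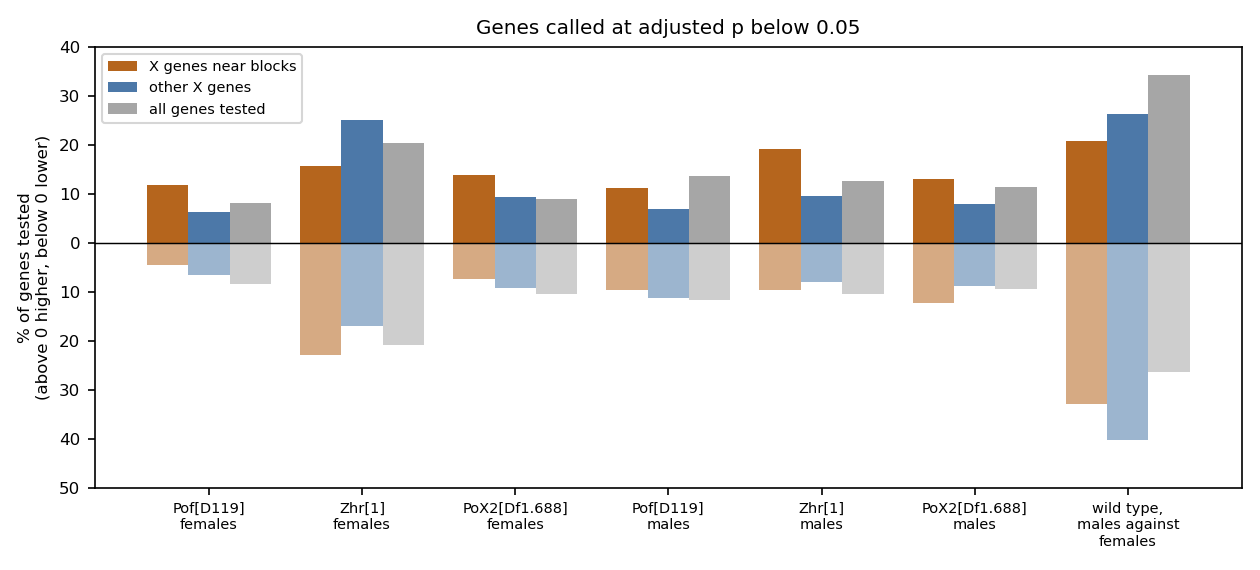
Percent of tested genes with an adjusted p below 0.05, drawn upward for higher and downward for lower levels in the group named first, for X genes near blocks, other X genes and all genes tested. In Zhr[1] males 19.1% of the genes near blocks were higher and 9.57% lower, beside 9.61% and 7.97% of other X genes.

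The median log2 fold change of the genes near blocks was small in every comparison. Among females it was 0.07 in Pof[D119], -0.11 in Zhr[1] and 0.02 in PoX2[Df1.688], beside -0.02, 0.05 and 0.05 for other X genes. Among males it was 0.00, 0.05 and 0.08 in the same order of mutants, beside -0.03, -0.01 and -0.02. In Zhr[1] females the genes near blocks and other X genes thus differed in the sign of their medians, and in males of the 3 mutants the genes near blocks had the higher median. Without wild-type male replicate 2 the difference of the medians was -0.01 in Pof[D119] males, and so turned its sign, while it was 0.061 for Zhr[1] and 0.10 for PoX2[Df1.688].

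The levels of both sets were also compared within each library. For each library, the mean log2 CPM of the genes near blocks minus that of other X genes was taken, a value that moves with either set. For females it came to 0.99 ± 0.04 in wild type, 1.08 ± 0.078 in Pof[D119], 0.88 ± 0.063 in Zhr[1] and 1.05 ± 0.046 in PoX2[Df1.688] (SD, n = 4). For males it came to 0.58 ± 0.051 in wild type, 0.62 ± 0.052 in Pof[D119], 0.73 ± 0.02 in Zhr[1] and 0.69 ± 0.048 in PoX2[Df1.688] (SD, n = 4). Zhr[1] males lay between 0.72 and 0.76, above the wild-type males at 0.54 to 0.66. PoX2[Df1.688] males reached down to 0.64 and overlapped wild type through its replicate 2. In females no mutant was fully separated from wild type.

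**Figure D2:**
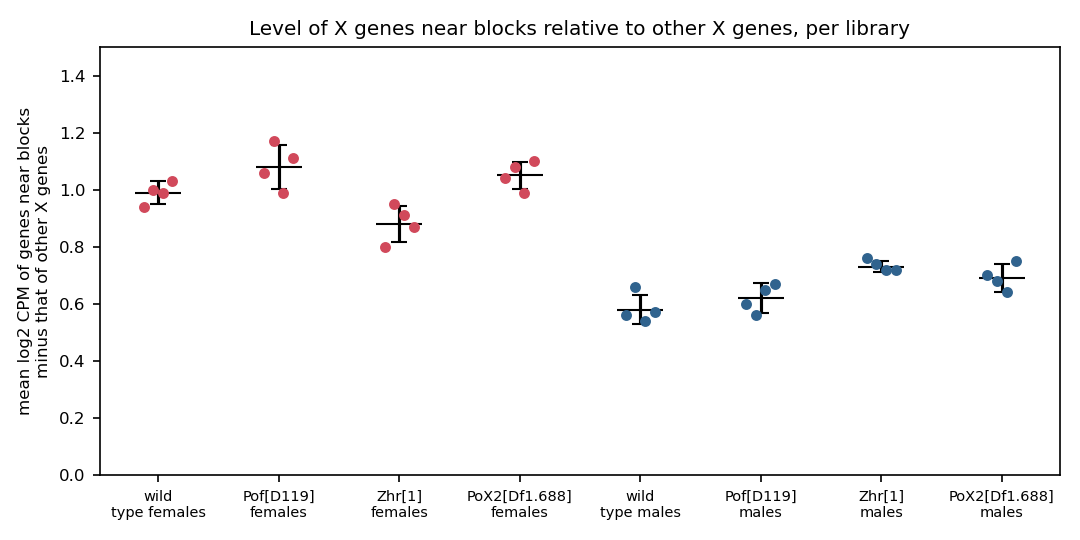
Mean log2 CPM of X genes near blocks minus that of other X genes, 1 point per library, with the mean and SD of the 4 libraries of each group. Zhr[1] males (0.72 to 0.76) lie above wild-type males (0.54 to 0.66), and all females lie above all males.

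The lower genes of Zhr[1] females were mainly those that overlap a block. Of the 38 overlapping genes 3 were higher and 16 lower, with a median log2 fold change of -0.33. Of the 20 tested genes at 1 to 1000 bp, 6 were higher and 4 lower, and of the 30 beyond 2500 bp, 4 were higher and 2 lower. Span differs along with overlap. Among genes spanning at least 20000 bp, 4 were higher and 15 lower near blocks (38 tested, median -0.30), and 25 were higher and 44 lower among other X genes (160 tested, median -0.14). Overlap and span could only partly be separated. Of the 38 long genes near blocks 30 overlapped a block, with 3 higher and 12 lower (median -0.30). Some of the 15 lower long genes thus did not overlap a block. Of the 8 overlapping genes shorter than 20000 bp, 4 were lower and 0 higher (median -0.52). Ovarian transcripts moved in the same comparison. The 7 matched genes of 8 germline markers summed to 1220 to 1580 CPM in Zhr[1] females and 756 to 943 CPM in wild type, with 5 higher and 1 lower, and the part of this in the lower genes was not tested.

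The median of the overlapping genes was nearer to 0 in the other comparisons. They had median log2 fold changes of 0.07 and -0.06 in Pof[D119] and PoX2[Df1.688] females, and of 0.02, 0.03 and 0.08 in Pof[D119] males, Zhr[1] males and PoX2[Df1.688] males. The higher genes of Zhr[1] males lay farther out, with 9 higher and 0 lower of 30 beyond 2500 bp, and 7 higher and 1 lower of 21 between 1000 and 2500 bp. Nearer in, 2 were higher and 6 lower of 26 at 1 to 1000 bp, and 4 higher and 4 lower of the 38 overlapping genes. Of all genes tested 12.6% were higher and 10.4% lower. Those with the nearest block before their start numbered 11 higher and 1 lower of 39, and those with it after their end 7 higher and 6 lower of 38.

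**Figure D3:**
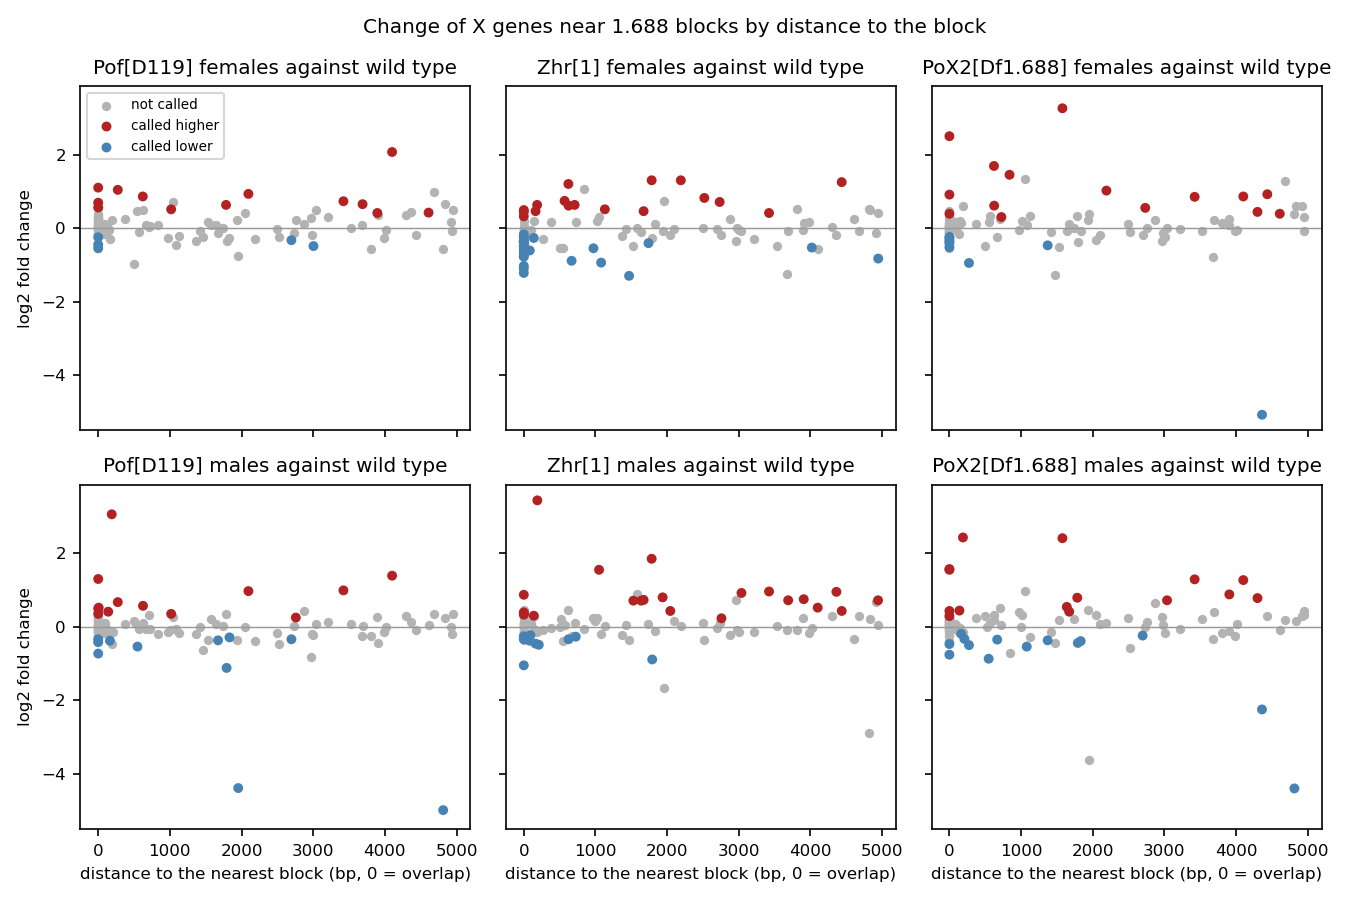
Log2 fold change of each tested X gene near a block against wild type of the same sex, by distance in bp from the gene span to the nearest block, with 0 for overlap and colour for genes called at an adjusted p below 0.05. In Zhr[1] females 16 of the 38 overlapping genes were lower and 3 higher.

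Other X genes from the same stretch were more often higher than lower in Zhr[1] females. Between 8 and 13.5 Mb, 11 genes near blocks were higher and 18 lower of 82 tested (median -0.17), while 108 other X genes were higher and 63 lower of 392 (median 0.11). X genes between 5000 and 20000 bp from a block had 39 higher and 38 lower of 165 (median 0.02). The study sorted X genes into 4 bins by MSL complex binding, from the unbound or weakly bound genes of bin 1 to the strongly bound ones of bin 4, and 86 genes near blocks were in a bin, 26 in bin 1, 47 in bin 2, 10 in bin 3 and 3 in bin 4. In bin 1, 2 genes near blocks were higher and 11 lower in Zhr[1] females (25 tested, median -0.38), beside 64 higher and 51 lower of 301 other X genes of that bin (median 0.01). In bin 2 the counts were 4 higher and 10 lower of 46 near blocks, beside 48 higher and 79 lower of 331. In bin 3 there were 3 higher and 0 lower of 10 near blocks, beside 133 higher and 64 lower of 417, and in bin 4 there were 2 higher and 0 lower of 3, beside 65 higher and 18 lower of 187.

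Genes that shared a nearest block were found to change both in the same and in opposite directions. In Zhr[1] females 11 such pairs had both genes called, 5 in the same and 6 in opposite directions. In Pof[D119] males there were 5 such pairs, 4 in the same and 1 in opposite directions, and in Zhr[1] males 5, of which 2 were in the same direction.

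Of the 117 genes, 36 were called in none of the mutant comparisons in which they were tested, which includes CG1986 and Rab9Db, tested in none, and the 6 genes tested in males only could be called in at most 3. Of the others, 30 were called in 1, 29 in 2, 12 in 3, 7 in 4, and 1 in 5. Only CARPB and SmydA-4 changed in all 6, and both were higher in each. The number of calls per gene was not taken for all genes, so this spread cannot be set against genes elsewhere. In females, 3 genes were higher and 1 was lower in all 3 mutants, which is 3.67% of the genes near blocks beside 2.34% of other X genes and 4.35% of all genes. In males 4 were higher and 2 lower in all 3 mutants, 5.22% beside 2.47% and 5.0%. Since the mutants share their wild-type libraries, a wild-type level that is high or low by itself would enter all 3 comparisons.

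CARPB (X, 9783223 to 9855449) encodes a carbonic anhydrase-related protein and holds 3 blocks between its exons. In females it was at 21.7, 20.5, 17.2 and 23.3 CPM in wild type, at 45.8, 43.5, 43.7 and 46.0 CPM in Pof[D119], at 26.8, 33.9, 30.1 and 27.1 CPM in Zhr[1] and at 37.2, 38.6, 37.8 and 40.7 CPM in PoX2[Df1.688]. Males had 12.7, 20.2, 18.3 and 14.9 CPM in wild type, 35.4, 42.4, 41.1 and 43.1 CPM in Pof[D119], 29.5, 27.6, 32.9 and 27.7 CPM in Zhr[1] and 46.2, 52.3, 43.0 and 45.7 CPM in PoX2[Df1.688]. Every mutant library lay above every wild-type library of its sex (exact permutation p = 0.0286 each, the smallest that 4 against 4 allows). As CARPB was named for its calls on the same libraries, this p is no independent support. The log2 fold change was 1.10 ± 0.10 (SE) in Pof[D119] females (adjusted p = 8.62e-07), 0.49 ± 0.10 in Zhr[1] females (adjusted p = 0.00108) and 0.91 ± 0.10 in PoX2[Df1.688] females (adjusted p = 9.58e-06). The male values were 1.30 ± 0.12 (adjusted p = 5.1e-07), 0.87 ± 0.12 (adjusted p = 6.22e-05) and 1.55 ± 0.12 (adjusted p = 9.85e-08) in the same order. In PoX2[Df1.688] the male effect exceeded the female one by 0.60 ± 0.16 on the log2 scale (adjusted p = 0.0203).

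One of the 3 blocks inside CARPB (X, 9809613 to 9810454) could be tested as a feature of its own, on single reads counted at every place they align. It had 7, 4, 10 and 1 reads in wild-type females and 18, 13, 10 and 24 in Pof[D119] females, and 1, 2, 5 and 0 in wild-type males and 10, 12, 19 and 9 in Pof[D119] males. Reads from the block were thus few, and the groups met at 10 reads in females and did not overlap in males. Its log2 fold change was 1.82 ± 0.52 in Pof[D119] females (adjusted p = 0.0167) and 3.06 ± 0.71 in Pof[D119] males (adjusted p = 0.00197). It was also higher in PoX2[Df1.688] females and males and in Zhr[1] males (log2 1.90, 2.60 and 1.96), and in Zhr[1] females it was at 0.77 (adjusted p = 0.232). Counting did not use strand, so that intronic reads of CARPB and transcripts of the block itself cannot be told apart.

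SmydA-4 (X, 11044756 to 11049540), a member of the SET and MYND domain family of protein methyltransferase-like proteins, has its block 3422 bp before its start. In females its levels were 21.6 to 27.8 CPM in wild type, 32.8 to 53.1 CPM in Pof[D119], 31.9 to 38.1 CPM in Zhr[1] and 43.1 to 46.7 CPM in PoX2[Df1.688]. In males they were 15.3 to 18.5 CPM in wild type, 27.9 to 38 CPM in Pof[D119], 29.9 to 36.5 CPM in Zhr[1] and 38.4 to 41.8 CPM in PoX2[Df1.688]. No mutant group overlapped wild type (exact permutation p = 0.0286 each). Log2 fold changes were 0.73 ± 0.12, 0.41 ± 0.12 and 0.85 ± 0.12 in females of Pof[D119], of Zhr[1] and of PoX2[Df1.688], and 0.99 ± 0.10, 0.96 ± 0.10 and 1.29 ± 0.10 in males, with a largest adjusted p of 0.0123 in Zhr[1] females. The Zhr[1] effect was larger in males by 0.49 ± 0.16 (adjusted p = 0.0251).

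The related SmydA-9, 1672 bp from its block, went in opposite directions in different mutants. In males it was at 51.5, 54.8, 53.3 and 54.3 CPM in wild type and at 40.5, 35.4, 47.3 and 41.8 CPM in Pof[D119] (log2 -0.37 ± 0.09, adjusted p = 0.00711). It was at 85.4, 99.6, 77.1 and 84.0 CPM in Zhr[1] males (log2 0.73 ± 0.09, adjusted p = 1.7e-05) and at 72.7, 63.0, 73.4 and 64.4 CPM in PoX2[Df1.688] males (log2 0.41 ± 0.09, adjusted p = 0.00457). None of these groups overlapped wild type. Of the 8 transcription and chromatin genes, 4 were higher and 0 lower in Zhr[1] females, beside 20.3% and 20.8% of all genes. The group itself was not tested. Among the 4 were SmydA-9 (log2 0.46), the histone H3 lysine 9 methyltransferase gene G9a and mxc, a gene of the histone locus body. In Pof[D119] males 1 of the 8 was higher and 1 lower, beside 13.6% and 11.6% of all genes.

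vanin-like (X, 6200188 to 6202559), whose name gives it to the vanin family of pantetheinases, starts 4101 bp from its block. The females had 17.5, 11.6, 16.2 and 16.5 CPM in wild type, 47.8, 89.3, 70.8 and 53.6 CPM in Pof[D119] and 28, 19.5, 29 and 34.9 CPM in PoX2[Df1.688]. Zhr[1] females had 12.3, 15.9, 8.2 and 5.99 CPM, which overlapped wild type. The Pof[D119] females were highest of all groups (log2 2.07 ± 0.26, adjusted p = 4.57e-05), and PoX2[Df1.688] females were also above wild type (0.86 ± 0.26, adjusted p = 0.0285). Males had 7.91 to 11.2 CPM in wild type, 15.5 to 29 CPM in Pof[D119], 11.8 to 14.5 CPM in Zhr[1] and 17.1 to 24.6 CPM in PoX2[Df1.688], with no mutant group overlapping wild type. The male log2 fold changes were 1.39, 0.52 and 1.27. In Zhr[1] the sexes differed by 1.03 ± 0.33 (adjusted p = 0.0257), and the call in Zhr[1] males (adjusted p = 0.0338) was lost without any of 6 single libraries.

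RabX2, a small GTPase gene 189 bp from its block, was a low transcript that was higher in males of all 3 mutants. Counts in wild-type males were 8, 8, 21 and 5 read pairs, and in Zhr[1] males 45, 45, 82 and 52. In CPM it was at 0.176 to 0.565 in wild-type males, 2.37 to 3.63 in Pof[D119], 2.68 to 4.60 in Zhr[1] and 0.926 to 2.41 in PoX2[Df1.688] males. Mutant and wild-type males did not overlap (exact permutation p = 0.0286 each), at log2 fold changes of 3.06 ± 0.33, 3.44 ± 0.34 and 2.43 ± 0.36. In females it was at 0.369 CPM or below in every library.

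**Figure D4:**
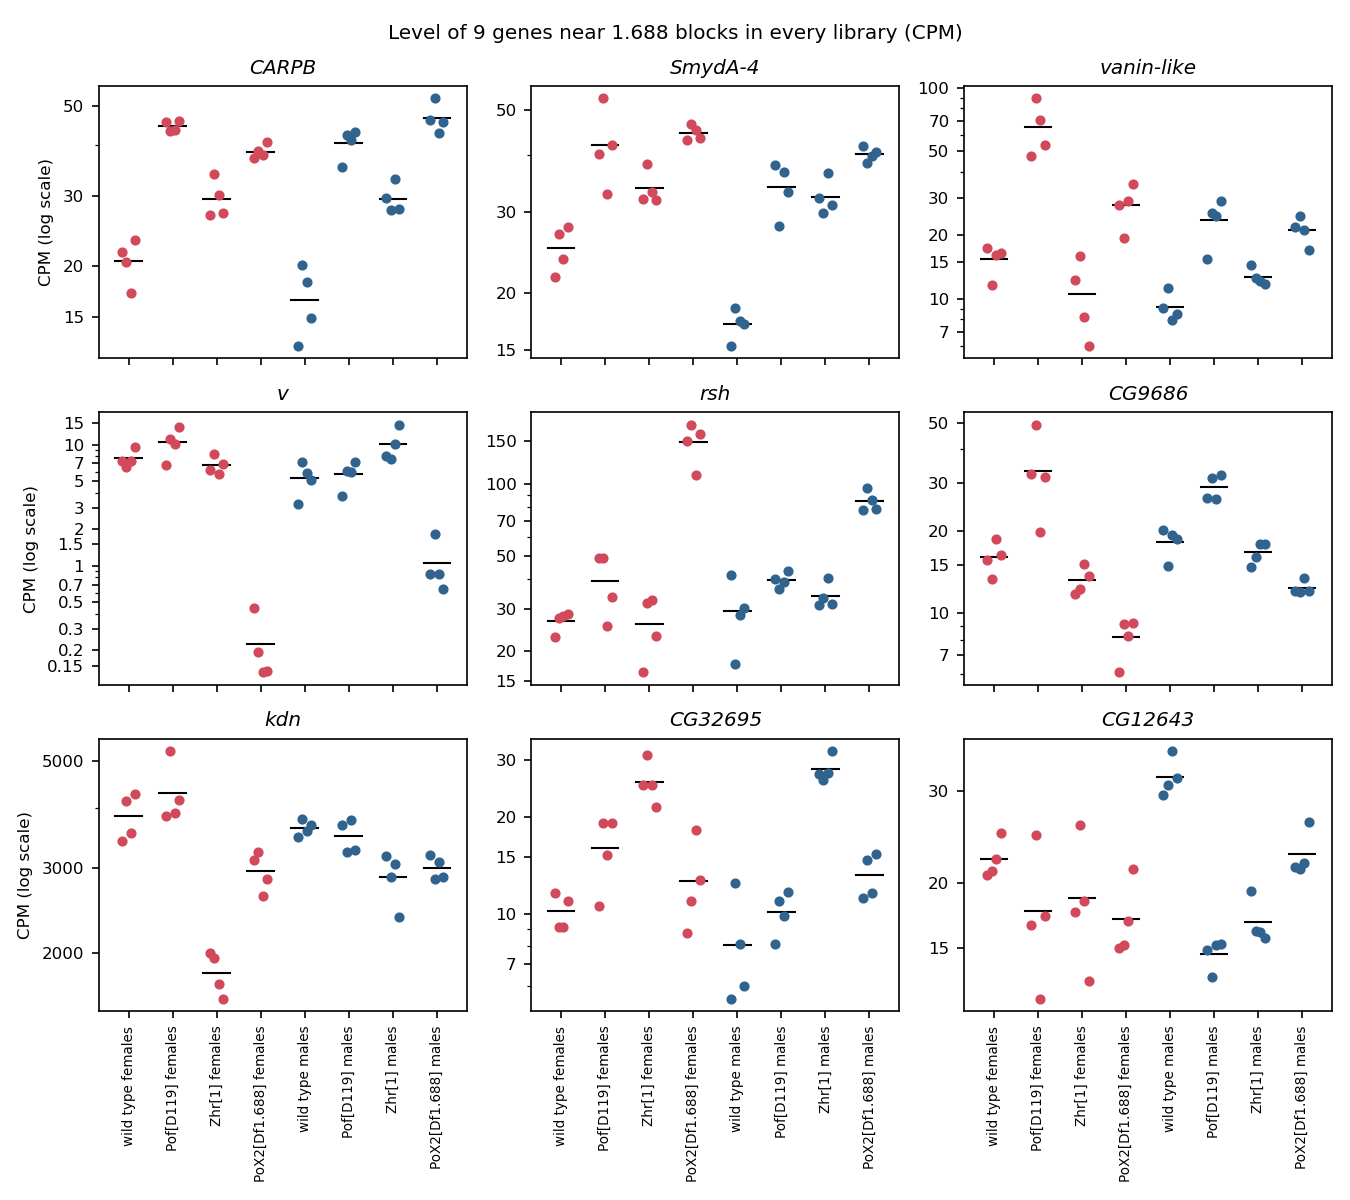
CPM (log scale) of 9 genes near blocks in every library, females in red and males in blue, with a line at the mean of each group. CARPB and SmydA-4 lie above wild type in every mutant group, and v in PoX2[Df1.688] falls to between 0.132 and 0.444 CPM in females.

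In PoX2[Df1.688] the gene that fell most was v (vermilion, X, 10923972 to 10925631), which encodes tryptophan 2,3-dioxygenase, the first enzyme of brown eye pigment synthesis, and lies 4362 bp from its block. In females it was at 7.32, 6.59, 7.39 and 9.58 CPM in wild type and at 0.444, 0.194, 0.132 and 0.136 CPM in PoX2[Df1.688], from 6, 4, 2 and 2 read pairs. The males stood at 3.21, 7.25, 5.83 and 5.10 CPM in wild type and at 0.859, 1.83, 0.855 and 0.637 CPM in PoX2[Df1.688]. The mutant lay below wild type in both sexes. It fell by 5.08 ± 0.33 on the log2 scale in females (adjusted p = 4.62e-08) and by 2.25 ± 0.34 in males (adjusted p = 0.000141), and the sexes differed by 2.80 ± 0.57 (adjusted p = 0.00418). The block nearest to v is another than the one removed in this line. In Zhr[1] males v was higher, at 7.66 to 14.6 CPM (log2 0.95 ± 0.27, adjusted p = 0.0145), and the call was lost without Zhr[1] male replicate 4 (log2 0.74, adjusted p = 0.0573).

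The largest increases in PoX2[Df1.688] females were at CG12715 and rsh, and in males at RabX2 and CG12715. rsh (X, 12988615 to 13079070) holds a block between its exons, and CG12715 (X, 13052847 to 13055328) lies inside the rsh span on the other strand, so that without strand their reads cannot be fully told apart. In females rsh was at 22.9, 27.4, 28 and 28.4 CPM in wild type and at 151, 176, 109 and 161 CPM in PoX2[Df1.688] (log2 2.5 ± 0.23, adjusted p = 2.15e-06). Male levels were 41.7, 17.6, 28.3 and 30.2 CPM in wild type and 77.9, 95.4, 85.1 and 78.6 CPM in PoX2[Df1.688] (log2 1.57 ± 0.17, adjusted p = 4.72e-06). The groups did not overlap in either sex, and the effect was smaller in males by 0.97 on the log2 scale (male minus female -0.97 ± 0.30, adjusted p = 0.0474). CG12715 was at 0.0662 to 0.482 CPM in wild-type females and 1.92 to 3.59 CPM in PoX2[Df1.688] females, with log2 fold changes of 3.26 ± 0.55 in females and 2.41 ± 0.33 in males. Pof[D119] and Zhr[1] left both genes below the threshold in both sexes.

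4 of the genes lie beside the block that PoX2[Df1.688] lacks. sicily (X, 11891732 to 11893745), which encodes an assembly factor of respiratory complex I, overlaps the block at an exon. In males it was at 13.8, 15.7, 15.5 and 13.9 CPM in wild type and at 11.3, 7.09, 7.27 and 8.12 CPM in PoX2[Df1.688] (log2 -0.76 ± 0.15, adjusted p = 0.00135), with no overlap. In females it was at 16.5, 16.5, 12.9 and 16.2 CPM in wild type and at 12.1, 15.2, 14.6 and 10.8 CPM in PoX2[Df1.688], which overlap (log2 -0.22 ± 0.12, adjusted p = 0.207). The difference between the sexes missed the threshold (male minus female -0.57 ± 0.19, adjusted p = 0.0777). In the table's coordinates the block and the exon share only the stretch from 11891732 to 11891752, of 1385 bp counted for sicily. A loss of counted sequence was not tested.

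The neighbours upstream of the removed block did not pass the test in PoX2[Df1.688]. CG10353, 2096 bp from the block, was at 74.2, 75.5, 68.1 and 79.6 CPM in PoX2[Df1.688] females and at 82.8, 89.7, 85.3 and 86.4 CPM in wild type (log2 -0.20 ± 0.08, adjusted p = 0.103). In Pof[D119] it was higher, at 165, 194, 136 and 164 CPM in females (log2 0.93 ± 0.08, adjusted p = 8.62e-07) and at 149, 131, 142 and 131 CPM in males against 67.2, 74.5, 71.8 and 68.5 CPM (log2 0.97 ± 0.07, adjusted p = 1.55e-08). SelG, a selenoprotein gene 1018 bp from the block, was at 26.2 to 36.6 CPM in Pof[D119] females and at 19.7 to 21.5 CPM in wild type (log2 0.51 ± 0.10, adjusted p = 0.00287). In Pof[D119] males its call was weak (log2 0.35 ± 0.12, adjusted p = 0.0464), the groups overlapped, and it was lost under 2 other scalings and without any of 6 single libraries. In PoX2[Df1.688] SelG was at log2 0.20 in females and 0.32 in males (adjusted p = 0.192 and 0.0823).

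The fourth neighbour, wisp, encodes the poly(A) polymerase of the oocyte and early embryo. It was at 147, 105, 101 and 111 CPM in wild-type females, at 321, 228, 284 and 331 CPM in Zhr[1] females (log2 1.30 ± 0.31, adjusted p = 0.00375) and at 267, 224, 268 and 175 CPM in PoX2[Df1.688] females (log2 1.02 ± 0.31, adjusted p = 0.0285). Neither overlapped wild type, and the PoX2[Df1.688] call was lost without any of 5 single libraries. Pof[D119] females overlapped wild type, at 92.3, 40.0, 174 and 70.2 CPM. Without their replicate 3, wisp was lower in Pof[D119] females (log2 -0.79, adjusted p = 0.0273). In males wisp stayed at or below 3.73 CPM in every library. The 7 germline markers summed to 1050 to 1170 CPM in PoX2[Df1.688] females, 1220 to 1580 CPM in Zhr[1] females and 756 to 943 CPM in wild type, and their part in the wisp result was not tested.

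**Figure D5:**
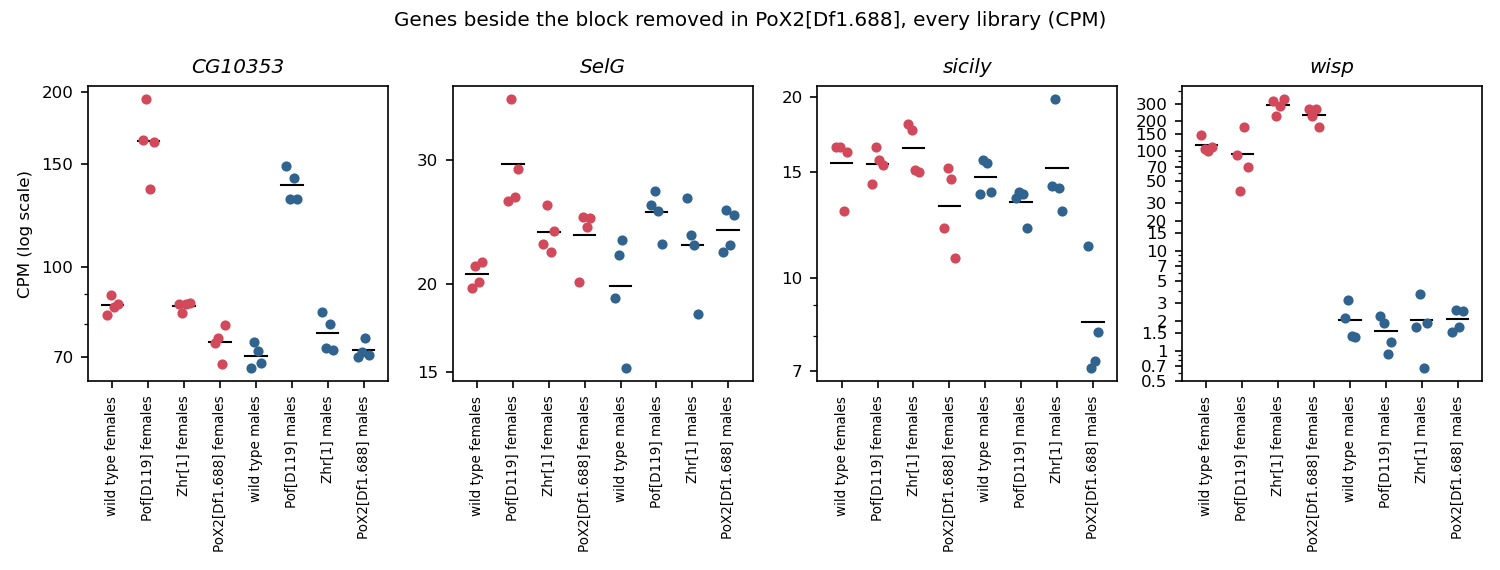
CPM (log scale) of the 4 genes beside the block that is absent in PoX2[Df1.688], in every library, with a line at the mean of each group. CG10353 is highest in Pof[D119] of both sexes (131 to 194 CPM), and sicily is lowest in PoX2[Df1.688] males (7.09 to 11.3 CPM).

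CG9686, an uncharacterised gene 273 bp from its block, was higher in Pof[D119] and lower in PoX2[Df1.688]. In females it was at 15.7, 13.4, 18.7 and 16.3 CPM in wild type, 32.5, 49.2, 19.8 and 31.7 CPM in Pof[D119] and 6.07, 9.12, 8.27 and 9.23 CPM in PoX2[Df1.688]. Male levels were 20.2, 14.9, 19.3 and 18.7 CPM in wild type, 26.4, 31.3, 26.3 and 32.2 CPM in Pof[D119] and 12.1, 12, 13.5 and 12.1 CPM in PoX2[Df1.688]. All 4 comparisons were free of overlap (exact permutation p = 0.0286 each). Log2 fold changes in Pof[D119] were 1.04 ± 0.20 in females and 0.67 ± 0.11 in males, and in PoX2[Df1.688] -0.95 ± 0.21 and -0.50 ± 0.11, with a largest adjusted p of 0.0046. In Zhr[1] the gene did not pass the test in either sex (log2 -0.30 and -0.10). Its neighbour across the block, CG9689, was lower in Pof[D119] and PoX2[Df1.688] males (log2 -0.54 and -0.87).

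Other genes of PoX2[Df1.688] females were changed less clearly. CG12398, 839 bp from its block, was at 12, 5.85, 5.19 and 6.51 CPM in wild type and at 23.3, 20.2, 20.5 and 16.2 CPM in PoX2[Df1.688] females (log2 1.45 ± 0.45, adjusted p = 0.0307), and the call was lost without any of 6 single libraries. The integrin alpha chain gene mew was at 96.7 to 124 CPM in wild-type and 72.8 to 80.3 CPM in PoX2[Df1.688] females (log2 -0.52 ± 0.09, adjusted p = 0.000588), with no overlap. Cubn, which encodes cubilin, an endocytic receptor of nephrocytes, was at 49.8 to 65.9 CPM in wild-type and 37.6 to 45.5 CPM in PoX2[Df1.688] females (log2 -0.47 ± 0.12), and was lower in males as well (log2 -0.37 ± 0.08).

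In Pof[D119] females the remaining higher genes included the peptidase gene Nep6 (log2 0.65 ± 0.13), Neto (0.69 ± 0.16), which encodes an auxiliary subunit of glutamate receptors, and FBgn0259680 (0.56 ± 0.10). The 6 larval fat body markers summed to 1960 to 2550 CPM in these females and 829 to 1490 CPM in wild-type females, with 4 of 6 higher and 0 lower, and their part in these results was not tested. snoRNA:Psi28S-3342, a guide for modification of 28S ribosomal RNA, was higher in females of all 3 mutants (log2 0.86 in Pof[D119] and 1.20 in Zhr[1]), and the Pof[D119] call was lost without wild-type female replicate 1 or 4 (adjusted p = 0.0618 and 0.0565). It is 164 bp long, and in the rRNA-depleted libraries it was at 5.37 to 7.70 CPM in wild-type females and 14.4 to 28.8 CPM in PoX2[Df1.688] females. Of the lower genes, Cht6, a chitinase gene, was at log2 -0.55 ± 0.12 in Pof[D119] females and -0.34 ± 0.08 in Pof[D119] males. The Golgi adaptor gene Gga (-0.49 ± 0.10) and CG12121 (-0.33 ± 0.08) were lower in Pof[D119] females.

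kirre encodes an immunoglobulin-type adhesion receptor that founder myoblasts use in muscle fusion. It spans 2740384 to 3134532 on X and holds 1 block between its exons. Female levels were 22.5, 23.3, 22.7 and 23.8 CPM in wild type, 17.6, 20.3, 15.2 and 15.2 CPM in Pof[D119], 16.0, 19.4, 19.9 and 18.2 CPM in Zhr[1] and 19, 16.3, 15.0 and 18.5 CPM in PoX2[Df1.688]. The 3 mutants lay below wild type, at log2 -0.45 ± 0.11, -0.35 ± 0.11 and -0.41 ± 0.11 (largest adjusted p = 0.015, in Zhr[1]). The Zhr[1] call was lost without Zhr[1] female replicate 1 (log2 -0.28, adjusted p = 0.0695). In males only Pof[D119] passed the test, at 19.8, 14.8, 16.5 and 15.2 CPM against 27.2, 28.1, 25.2 and 29.6 CPM (log2 -0.73 ± 0.10, adjusted p = 2.54e-05). Whether the sexes differ in Pof[D119] was not shown (adjusted p = 0.435).

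Of 15 tested cytoskeleton, adhesion and trafficking genes, 2 were higher and 7 lower in Zhr[1] females, beside 17 higher and 25 lower of the 109 genes near blocks and 20.3% and 20.8% of all genes, with no test of the group itself. Nrg (neuroglian), an L1-type adhesion protein of neurons and epithelia, was at 321, 369, 354 and 363 CPM in wild-type females and 199, 247, 207 and 231 CPM in Zhr[1] females (log2 -0.69 ± 0.09, adjusted p = 2.49e-05). Male levels were 311, 316, 342 and 316 CPM in wild type and 262, 234, 260 and 234 CPM in Zhr[1] (log2 -0.34 ± 0.07, adjusted p = 0.00167). The groups did not overlap, and the fall was smaller in males by 0.29 ± 0.10 (adjusted p = 0.0407). mew (log2 -0.38 ± 0.09), the flotillin gene Flo2 (-0.37 ± 0.07) and the netrin gene NetA (-0.78 ± 0.19) were also lower in Zhr[1] females, and RhoU and CCT2 were higher.

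Of the 4 mitochondrial genes, 2 were lower and 0 higher in Zhr[1] females, beside 20.8% and 20.3% of all genes. The group itself was not tested. The lower ones were kdn and ND-B16.6. They lie head to head at the same block, kdn with the block between its exons and ND-B16.6 at 667 bp. kdn was at 3410, 4130, 3540 and 4260 CPM in wild-type females and at 2000, 1950, 1730 and 1610 CPM in Zhr[1] females (log2 -1.10 ± 0.11, adjusted p = 3.26e-06). ND-B16.6 was at 240, 282, 266 and 302 CPM in wild-type females and at 165, 158, 143 and 129 CPM in Zhr[1] females (log2 -0.89 ± 0.12, adjusted p = 4.97e-05). Neither overlapped wild type, and the falls were larger than in Zhr[1] males, by 0.73 ± 0.14 for kdn (adjusted p = 0.000748) and by 0.57 ± 0.16 for ND-B16.6 (adjusted p = 0.0103). In Zhr[1] males kdn was at log2 -0.30 ± 0.09 (adjusted p = 0.0246) and ND-B16.6 at -0.26 ± 0.10 (adjusted p = 0.0595). In PoX2[Df1.688], kdn was lower in females (-0.36 ± 0.11) and ND-B16.6 in males (-0.35 ± 0.10). sicily and the coenzyme Q gene Coq5 did not pass the test in Zhr[1] in either sex.

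CG43740 and CG32695 changed in the same direction in both sexes of Zhr[1]. CG43740 holds a block between its exons and was at 8.19 to 10.1 CPM in wild-type females and 4.13 to 5.13 CPM in Zhr[1] females, and at 17.5 to 28.6 against 9.39 to 12.5 CPM in males (log2 -1.03 ± 0.17 and -1.05 ± 0.15). CG32695, 1784 bp from its block, was at 9.11 to 11.6 CPM in wild-type females and 21.4 to 31.1 CPM in Zhr[1] females, and at 5.48 to 12.5 against 26 to 31.9 CPM in males (log2 1.30 ± 0.21 and 1.85 ± 0.20). Each of the 4 comparisons was free of overlap (exact permutation p = 0.0286). CG32695 was also higher in Pof[D119] females (0.63 ± 0.20) and PoX2[Df1.688] males (0.79 ± 0.21). Both genes are uncharacterised. Among sparse genes, CG45060 was lower in Zhr[1] females on 8 to 18 read pairs against 34 to 74 in wild type (log2 -1.30 ± 0.48, adjusted p = 0.0415), a call lost without any of 5 single libraries. CG34026, with its block on an exon, was at 11.2, 13.8, 13.2 and 14.5 CPM in wild-type and 8.02, 6.10, 7.39 and 1.33 CPM in Zhr[1] females (log2 -1.22 ± 0.35, adjusted p = 0.012), without overlap. In Zhr[1] males CG12645 was called higher on 7 to 23 read pairs (log2 1.55 ± 0.49, adjusted p = 0.0301), with an overlap with wild type and a loss of the call without any of 3 libraries, and CG15333 was lower (log2 -0.49 ± 0.11).

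Several genes that were higher in wild-type females than in wild-type males were also higher in Zhr[1] females. Besides wisp, yin, an oligopeptide transporter gene, was at 70.7 to 116 CPM in wild-type females and 166 to 245 CPM in Zhr[1] females (log2 1.25 ± 0.30, adjusted p = 0.00398). G9a was at 117 to 146 CPM in wild type and 178 to 229 CPM in Zhr[1] females (log2 0.71 ± 0.14, adjusted p = 0.00125). Corp (0.82 ± 0.18) and mxc (0.51 ± 0.15) were higher as well. These genes are picked examples, and others did not follow. The means of mew and Flo2 were 109 and 48.1 CPM in wild-type females and 78.5 and 32.4 CPM in wild-type males. Both were lower in Zhr[1] females. SPR, also higher in wild-type females, did not pass the test in Zhr[1] females (log2 -0.31, adjusted p = 0.229). No count over all genes with higher levels in wild-type females is given. In wild type, wisp, yin, G9a and CCT2 were all higher in females than in males, and the summed germline markers given above were higher in Zhr[1] than in wild-type females. Their part in these results was not tested. In females the chorion markers, which mark late follicle cells, summed to 1.58 to 3.71 CPM in wild type and 2.6 to 2150 CPM in Zhr[1], with 8 of 8 tested higher.

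Of 21 enzymes and metabolic genes, 7 were higher and 2 lower in Zhr[1] males, beside 19.1% and 9.57% of the genes near blocks and 12.6% and 10.4% of all genes, again with no test of the group. The higher ones included spirit (log2 0.75 ± 0.18), a serine protease of Toll activation, Nep6 (0.72 ± 0.21), Nadsyn (0.37 ± 0.08), which makes NAD, and su(r) (0.43 ± 0.15), of pyrimidine breakdown. Outside this group, fiz (0.72 ± 0.18), inside the span of Flo2 on the other strand, and CG32687 (0.71 ± 0.15) were higher as well. spirit, Nadsyn and CG32687 were also higher in PoX2[Df1.688] males (0.88, 0.29 and 0.54). In these 2 groups the 6 larval fat body markers were at 3220 to 5460 and 3050 to 4400 summed CPM, against 141 to 1370 CPM in wild-type males. Of these markers 5 were higher and 1 lower in Zhr[1] males, and 6 higher and 0 lower in PoX2[Df1.688] males. Their part in the result was not tested.

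CG12643, an uncharacterised gene 1792 bp from its block, was lower in males of all 3 mutants. It was at 29.5, 30.9, 35.8 and 31.8 CPM in wild-type males, 14.9, 13.2, 15.2 and 15.3 CPM in Pof[D119], 19.3, 16.2, 16.1 and 15.7 CPM in Zhr[1] and 21.5, 21.3, 21.9 and 26.2 CPM in PoX2[Df1.688] males. No mutant library reached the wild-type range, at log2 -1.12 ± 0.10, -0.89 ± 0.10 and -0.44 ± 0.10. In females the groups overlapped and no mutant passed the test. The sexes differed in Zhr[1] (male minus female -0.68 ± 0.23, adjusted p = 0.0334), and in Pof[D119] the difference was -0.79 ± 0.23 (adjusted p = 0.0886).

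3 genes changed in opposite directions in the sexes of Zhr[1], with a difference between the sexes that itself passed the test. CCT2, a subunit gene of the chaperonin that folds actin and tubulin, was at 320, 255, 247 and 270 CPM in wild-type females and 419, 324, 389 and 398 CPM in Zhr[1] females (log2 0.46 ± 0.13). In males it was at 112, 113, 124 and 116 CPM in wild type and 79.1, 85.9, 78.6 and 86.6 CPM in Zhr[1] (log2 -0.46 ± 0.06), a difference of -0.98 ± 0.15 between the sexes (adjusted p = 5.29e-05). CG7766, which faces the same block as CCT2, went the other way, at -0.27 ± 0.09 in females and 0.30 ± 0.08 in males (difference 0.51 ± 0.12, adjusted p = 0.00286). FBgn0029128 was at 0.61 ± 0.19 in females and -0.34 ± 0.09 in males (difference -1.01 ± 0.21, adjusted p = 0.00129). Leaving out single libraries took the call from FBgn0029128 in females (3 libraries) and from CG7766 in females (4 libraries) and in males (1 library). CCT2 was also lower in Pof[D119] and PoX2[Df1.688] males (log2 -0.38 ± 0.06 and -0.19 ± 0.06), the latter call being lost without any of 4 single libraries.

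Across all 115 genes tested in both sexes together, the effect of Zhr[1] differed between males and females in 30, of which 20 had the higher effect in males and 10 in females, 26.1% beside 23.1% of all genes (13.6% with the higher effect in females and 9.46% in males). Other X genes were split the other way, with 154 higher in males and 379 in females of 2058, or 25.9%. In PoX2[Df1.688] the effect differed in 10 genes, 3 with the higher effect in males and 7 in females, 8.7% beside 5.79% of all genes (2.93% and 2.86%). In Pof[D119] it differed in 0 genes by the edgeR test (1.41% of all genes, 0.731% with the higher effect in males and 0.681% in females), with 14 at an unadjusted p below 0.05, beside 1547 of all 13948 genes, and 3 called by DESeq2. Without wild-type male replicate 2 the Zhr[1] and PoX2[Df1.688] counts were 36 and 12.

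Yp1 and Yp2 share a block with Cht6 and encode yolk proteins made in the fat body and follicle cells of females. In wild-type males they were at 0.298, 57.3, 0.484 and 0.668 CPM and at 1.64, 166, 0.995 and 1.58 CPM, with replicate 2 far above the others. Pof[D119] males were at 0.389 to 0.570 CPM for Yp1 and 1.40 to 3.27 CPM for Yp2. The lower calls in Pof[D119] males (log2 -4.99 and -4.39, adjusted p = 0.0177 and 0.0206) and of Yp1 in PoX2[Df1.688] males (log2 -4.40, adjusted p = 0.0423) rest on that library. Without it the values were -0.09, 0.53 and 0.52, with adjusted p = 0.947, 0.539 and 0.693. In females neither gene passed the test in any mutant.

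Between the sexes of wild type, 62 of 115 genes near blocks differed, 24 higher in males and 38 in females, which is 53.9% (20.9% and 33%) beside 60.7% of all genes (34.3% and 26.4%) and 66.6% of other X genes (26.4% and 40.2%). The genes highest in males over females were low ones. CG2577 was at 16.6 to 18.7 CPM and CG43076 at 6.51 to 8.77 CPM in wild-type males, and both had 0 counts in every wild-type female library, so no fold is given. CG43075 was at 5.31 to 5.94 CPM in males, with 1 read pair in 1 of the 4 female libraries. CG15333 and CG9806 were higher in males by 6.88 ± 0.34 and 5.13 ± 0.46 on the log2 scale. All of these low genes passed the count minimum through the male libraries. Their excess in males is therefore partly set by the selection, and they are among the 24. On the female side stood wisp (log2 -5.87 ± 0.38), Yp2 (-5.75) and Yp1 (-5.45), which without wild-type male replicate 2 were at -10.67 and -10.35, then yin (-2.26 ± 0.25) and SPR (-2.11 ± 0.17), the receptor for sex peptide. Of the 8 transcription and chromatin genes 5 were higher in females and 2 in males, and of the 21 enzymes and metabolic genes 9 and 2.

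Transcripts of the blocks themselves were sparse. Of the 88 blocks with one of the genes in their window, 26 could be tested in females and 23 in males, and a read that fits several blocks was counted at each. In Pof[D119], 6 were higher and 0 lower in females and 8 higher and 2 lower in males, where over all blocks 12.2% were higher and 0.0% lower in females and 25.3% and 12.6% in males. In Zhr[1], 4 were higher and 1 lower in females and 8 higher and 1 lower in males, where over all blocks 8.84% were higher and 66.7% lower in females and 25.3% and 56.1% in males. In PoX2[Df1.688], 10 were higher and 3 lower in females and 12 higher and 2 lower in males, where over all blocks 76.5% and 60.0% were higher and 2.04% and 0.702% lower. In Zhr[1] most of all blocks were lower, which was not so for the blocks near the genes. The set of all blocks includes blocks that are not on the X. The study places the reduction in this mutant mainly in satellites outside the annotated X. Shares among the other X blocks are not given here. Whether blocks near the genes differ from other X blocks was therefore not tested.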

How the data were processed

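RNA was sequenced from whole flies, 4 samples per group and 8 groups, after depletion of ribosomal RNA. The deposited counts are whole read pairs per gene and reads per satellite block, made by the authors with Trimmomatic 0.36, STAR 2.5.4b and featureCounts 1.6.3 on release 6.13, without strand. Gene counts left out reads that fit several places or genes, which lowers genes with close copies or overlaps, whereas block counts kept every place of a read.

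Here the counts were scaled by TMM and tested with the edgeR 4.0.16 quasi-likelihood F test in R 4.3.3 (filterByExpr, Benjamini-Hochberg adjustment over all genes tested, threshold 0.05). The 16 libraries of a sex were fitted together for each mutant against wild type, and all 32 for the sexes of wild type and for the difference of a mutant effect between the sexes (male minus female). CPM used the scaled library sizes, errors of fold changes are SE, and single genes were also compared by a two-sided exact permutation test on log2 CPM with prior count 2. With 4 against 4 its smallest p is 0.0286. It was not adjusted, and most genes it is given for were named for their edgeR calls on the same libraries. It therefore describes separation of the groups and adds no independent support. Nothing in the labels says that replicates came from separate cultures, so p-values measure the spread between samples. Among 48 pairs of replicates of a group none agreed within sampling noise (chi-square per degree of freedom 5.87 or more). DESeq2 1.42.0, other scalings, no filter, other windows, a fold threshold, a replicate block and each library left out were tried.

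Members and lists were chosen with earlier results of these data known. Genes named in the text are, per mutant comparison, the 4 called genes with the largest and the 4 with the smallest fold change, then genes called in 1 direction in all 3 mutants of a sex, in opposite directions between sexes or mutants, the neighbours of the PoX2 block, the 5 largest and 5 smallest sex differences of wild type and the 5 highest levels per kb. Others were picked after their values were seen, to illustrate a role group, a shared block or a marker. Marker lists covered ovary germline, chorion, vitelline membrane, yolk, testis, accessory gland and larval fat body, with 7 of 8 genes matched for germline and for accessory gland. On simulated counts the test found 90 of 100 genes changed 2-fold in females and 88 of 99 in males. In each sex 8 unchanged genes were called. The counts were drawn with the same dispersion for every gene, so these shares are not the power on the real libraries. MSL bins were taken from the study as groups only. No sequences are shown, as no genome was used here.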

Additional observations from a re-analysis of the deposited data

Results flagged for a closer look

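Of 176 groups of 4 libraries checked, 14 had a library far from the other 3, where chance gives about 1 in 20. In CPM these were, in wild type, Yp1 (57.3) and Yp2 (166) in male replicate 2, sicily in female replicate 3 (12.9) and Nrg in male replicate 3 (342). In Pof[D119] they were RabX2 in female replicate 4 (0.18) and sicily in male replicate 4 (12.1). In Zhr[1] they were RabX2 (0.103) and CG10353 (83.4) in female replicate 2, Yp2 in male replicate 2 (29.4) and CG12643 in male replicate 1 (19.3). In PoX2[Df1.688] they were SelG in female replicate 1 (20.1), CG43740 (21.9) and CG9686 (13.5) in male replicate 3, and CG12643 in male replicate 4 (26.2).

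Among the 21 genes checked in this way, the effect of a mutant differed between the sexes in 11 cases by the interaction test in edgeR, given here as male minus female on the log2 scale. For Zhr[1] these were RabX2 (5.60), v (1.10), vanin-like (1.03), kdn (0.73), ND-B16.6 (0.57), SmydA-4 (0.49), Nrg (0.29) and CG12643 (-0.68). The RabX2 value rests on females with 0 to 12 read pairs and is no bound. For PoX2[Df1.688] they were v (2.80), CARPB (0.60) and rsh (-0.97).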

How the results depend on the processing

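Of 92 called differences of named genes, 3 lost the call under DESeq2, 1 each under RLE and upper-quartile scaling, 4 with the replicate block and 16 without some single library. With a fold threshold of 1 on the log2 scale the called counts were 3, 8 and 6 in Pof[D119] females, Zhr[1] females and PoX2[Df1.688] females, 6, 4 and 8 in males and 25 between the sexes of wild type. With a 2000 bp window Pof[D119] and PoX2[Df1.688] females had 10 and 15, and with 10000 bp 29 and 35. PoX2[Df1.688] females fitted with wild type alone had 36. DESeq2 called 3 Pof[D119] sex differences in place of 0. The cause of these moves was not tested beyond the number of genes tested.

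The difference of the medians of genes near blocks and other X genes was -0.274 in Zhr[1] females at 2000 bp, and that of means in PoX2[Df1.688] females 0.029. The value per library, in wild-type females, wild-type males, Pof[D119] females and males, PoX2[Df1.688] females and males and Zhr[1] females and males, was 0.68, 0.40, 0.75, 0.39, 0.69, 0.44, 0.57 and 0.48 at 10000 bp. At 2000 bp it was 1.05 and 0.83 in wild type, 0.88 in Pof[D119] males, 1.13 and 0.94 in PoX2[Df1.688] and 0.95 in Zhr[1] males. With medians it was 0.73 and 0.27 in wild type, 0.32 in Pof[D119] males, 0.84 and 0.54 in PoX2[Df1.688] and 0.58 and 0.41 in Zhr[1]. With a prior count of 0.5 it was 1.03 in wild-type females, 0.68 in Pof[D119] males, 1.12 and 0.75 in PoX2[Df1.688] and 0.80 in Zhr[1] males.

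Leaving out single libraries gave 13 to 32, 31 to 43 and 14 to 23 called genes in Pof[D119] females, Zhr[1] females and PoX2[Df1.688] females, 16 to 26, 27 to 38 and 22 to 34 in males and 58 to 66 between the sexes. Sex differences of the effects ranged over 0 to 2, 21 to 36 and 5 to 12. Differences of medians were 0.043 to 0.143, -0.227 to -0.146 and -0.050 to 0.016 in females and -0.024 to 0.040, 0.043 to 0.095 and 0.092 to 0.117 in males. Library values, in the order above, were 0.98 to 1.01, 0.56 to 0.60, 1.05 to 1.11, 0.60 to 0.64, 1.04 to 1.07, 0.67 to 0.71, 0.86 to 0.91 and 0.72 to 0.74. Called blocks were 4 to 6, 5 to 10 and 13 to 17 in females and 7 to 9, 5 to 10 and 11 to 14 in males.

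The replicate numbers of the labels did not pair the samples. Over 24 pairs of equal number the correlation of their deviations was -0.31 to 0.24, above 0.1 in 5, and 4 samples correlated best with their own number. With the replicate block the called counts were 16, 38 and 25 in Pof[D119] females, Zhr[1] females and PoX2[Df1.688] females, 22, 34 and 29 in males and 63 between the sexes.

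Reversals were of uncalled values, besides Yp1 and Yp2. On the log2 scale sicily was at 0.00 in Pof[D119] females under upper-quartile scaling, and wisp in Zhr[1] males at -0.05 with the replicate block and -0.01 under upper-quartile scaling. Without single libraries, Yp2 in Pof[D119] males ranged from -4.81 to 0.53 and Yp1 in PoX2[Df1.688] males from -4.84 to 0.52. The ranges of sicily were -0.09 to 0.02 in Pof[D119] females, -0.02 to 0.12 in Zhr[1] females and -0.06 to 0.16 in Zhr[1] males, and those of wisp -0.46 to 0.32 in Zhr[1] males and -0.03 to 0.41 in PoX2[Df1.688] males.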
